A study of Mus musculus with 6 samples.

Results

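Integrins, laminins and the molecules that tie them into the basement membrane were described in the mammary fat pads of mice lacking Pxmp2, a channel protein of the peroxisomal membrane. The set held 33 genes, taken by name: 18 integrin chains, 10 laminin chains, the nidogens Nid1 and Nid2, perlecan (Hspg2), agrin (Agrn) and dystroglycan (Dag1). A probe set counted as a member where the platform annotation gave it exactly 1 gene symbol and that symbol was in the set. This gave 76 of 45037 probe sets, for 32 of the 33 genes; Itga11 was not analysed here. Of these, 45 probe sets of 25 genes were above a filter on dim signals (the 40th percentile of the mean log2 levels, an intensity of about 59.1) and were tested, among 27022 probe sets in all.

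The study compared 3 Pxmp2-/- mice with 3 wild-type (WT) mice, all females on a C57BL/6J background, in a study of the part Pxmp2 plays in the development of mammary epithelium. In both genotypes the ovaries were taken out at 21 days of age, estradiol was given at 31 days, and pads 4 and 9 were collected 8 h after the injection, so every value describes the tissue shortly after a first estrogen stimulus. The way the gene was disrupted, and so what remains of its transcript, was not given in the sources used here. The values are deposited intensities of Affymetrix arrays on a linear scale in arbitrary units, with array medians between 98.5 and 105. Nothing states whether the 3 mice of a group came from separate litters, so the tests measure the spread between these mice.

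Integrins are cell surface receptors built of an alpha and a beta chain, and the pairing decides which matrix protein is bound. Laminins are cross-shaped trimers of an alpha, a beta and a gamma chain that polymerise into the first layer of a basement membrane. Nidogens, perlecan and agrin join that layer to collagen IV and to growth factors, and dystroglycan is a further receptor for laminin. In the mammary gland this sheet surrounds the ducts and keeps the epithelium polarised and responsive to hormones, and in fat it also wraps every adipocyte and capillary.

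Pxmp2 itself read 2643, 2465 and 2797 in WT mice and 308, 262 and 260.0 in Pxmp2-/- mice, so every label matched its genotype. Adipocyte transcripts were bright (Adipoq read 15299 to 16991 in the 6 mice), and epithelial ones were dim: of 10 luminal and 10 basal markers, 4 and 5 were above the filter. Among the defining epithelial markers below it, Krt5 read 1.91 to 19.7, Krt18 18.9 to 37.5 and Epcam (its brighter probe set) 31.6 to 49.7. In such bulk tissue, fewer cells of a type and less RNA per cell cannot be told apart.

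No member passed the threshold of an adjusted p of 0.05 (limma with Benjamini-Hochberg adjustment over all 27022 probe sets): the count was 0 of 45, against 17 probe sets (0.0629%) over the whole table. The lowest adjusted p of a member was 0.162. At an unadjusted p under 0.05 there were 7 of 45 member probe sets (15.6%), against 16.6% of all tested ones. Of the 7, 4 were higher in Pxmp2-/- mice and 3 lower, where the background was 6.12% and 10.5%. The genotypes did not overlap in 6 of the 45 (13.3%), against a background of 22.8%; 2 of these were higher (background 7.73%) and 4 lower (background 15.1%). The members' shares thus lay near or below those of the table, and the split by direction depended on the scaling: after quantile normalization the members split into 5 higher and 1 lower, and all tested probe sets into 2130 and 2128 in place of 1655 and 2842. Single mice moved these counts: the 4 higher became 7 without Pxmp2-/- 1 and 2 without WT 3, the 3 lower became 6 without WT 1 and 1 without WT 2 or WT 3, and the 17 calls of the table became 6, 2 or 1 without WT 1, 2 or 3 and 33, 1 or 1 without Pxmp2-/- 1, 2 or 3.

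**Figure D1:**
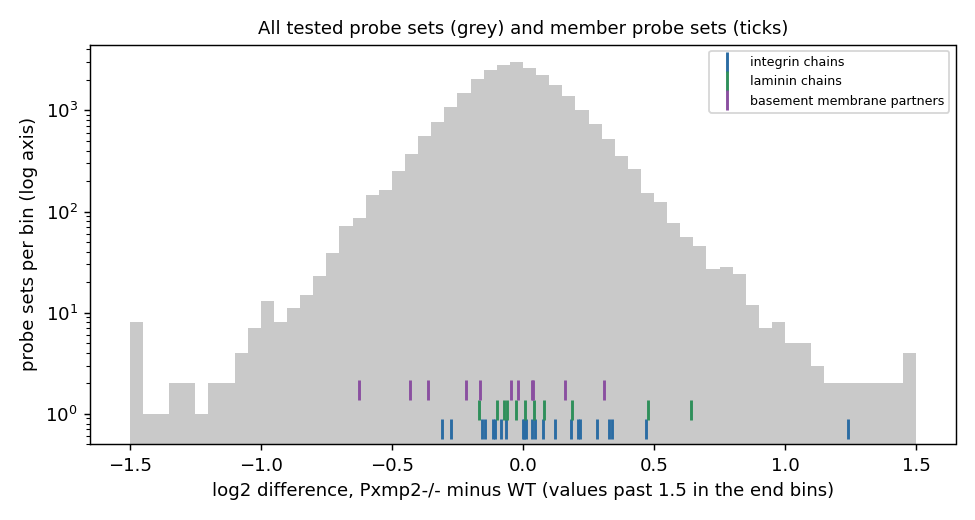
Log2 difference (Pxmp2-/- minus WT, x axis) of all 27022 tested probe sets as a grey histogram with a log count axis, and of the 45 member probe sets as ticks coloured by class. The ticks lie between -0.63 and 0.64, except Itgb8 at 1.24. Differences over 0.5 in size were found in 3 member probe sets (6.67%), against 3.86% of all tested ones.

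Differences between the genotypes were small for most members. Each gene was represented by its tested probe set with the highest mean level, a choice that does not use the genotype. The log2 differences of the 25 genes, taken as log2(intensity + 16) in Pxmp2-/- minus WT, ran from -0.31 (Itga7) to 1.24 (Itgb8), 13 above and 12 below 0. Their median was 0.0091, beside a median of -0.034 over the 12775 named genes tested. For 20 of the 25 genes (80%) the difference was under 0.2 in size, against 73.5% of all named genes. Over all 45 member probe sets the share ran the other way, 64.4% against 68.2% of all tested ones, and 3 (6.67%) differed by over 0.5 against 3.86%. At an unadjusted p under 0.05 there were 2 of the 25 genes (8%), Itga7 and Itgb8, against 14.2% of named genes. The 95% interval of the difference lay within 1.5-fold in either direction for 23 of the 25 genes, the exceptions being Itgb1 and Itgb8, and within 1.25-fold for 8; over all member probe sets it lay within 1.5-fold for 34 of 45. On this scale the pseudocount of 16 understates the change of dim transcripts. None of the 33 genes lies on chromosome 5, the chromosome of Pxmp2, in the RefSeq gene table.

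**Figure D2:**
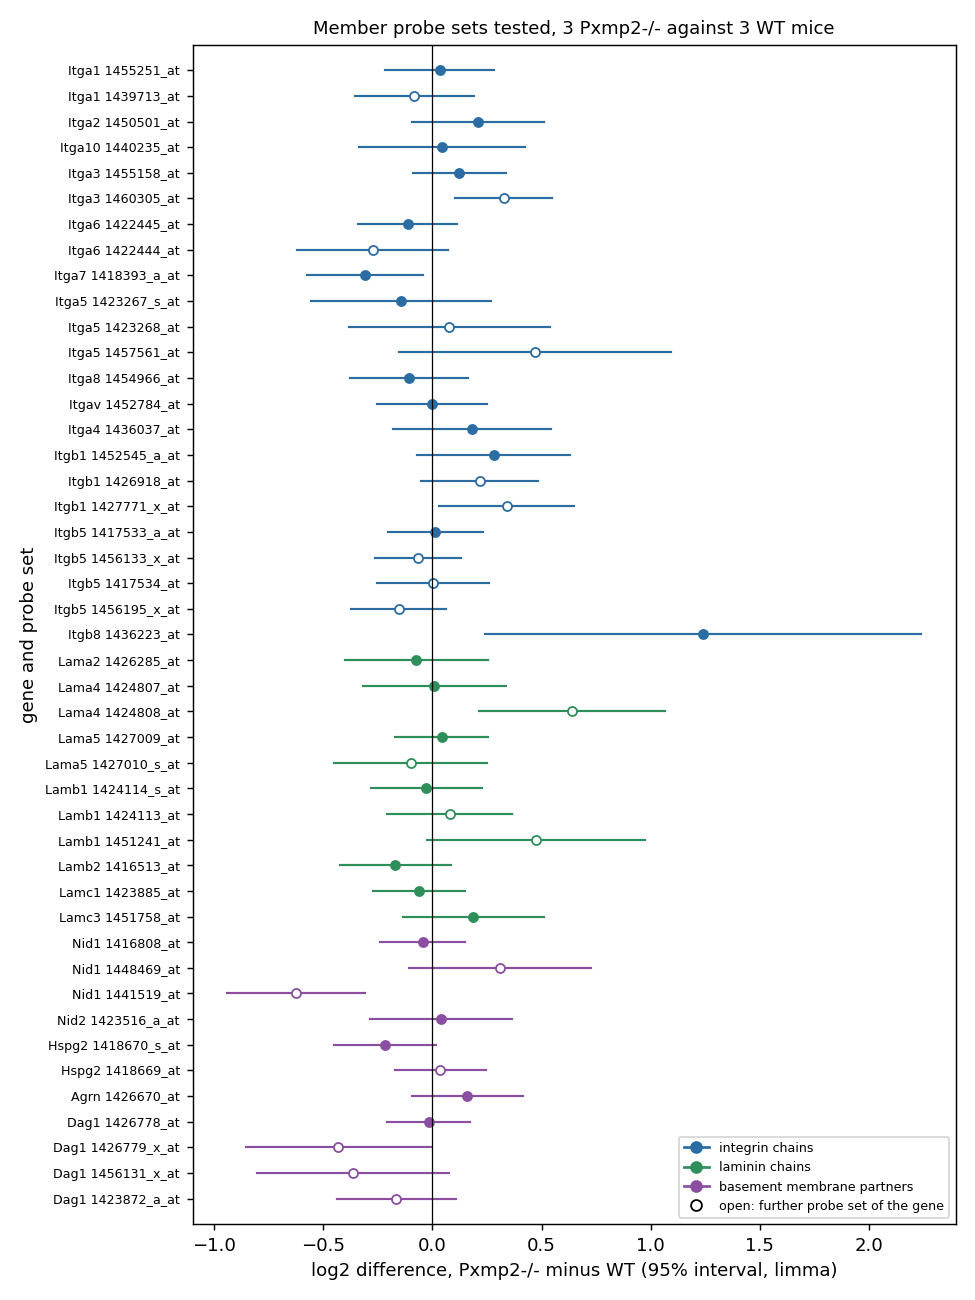
Log2 difference (point) with its 95% interval from limma (line) for the 45 tested member probe sets, ordered from integrin chains through laminin chains to basement membrane partners; filled points are the probe set that represents a gene and open points its others. Most intervals cross 0. For Nid1, Lama4, Dag1, Itga3 and Itgb1 an open point has an interval that does not, while the filled point of the same gene has one that does.

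Among the collagen-binding alpha chains, none had an unadjusted p under 0.05. Itga1, whose product with that of Itgb1 binds basement membrane collagen, read 837, 1009 and 947 in WT mice and 861, 1016 and 983 in Pxmp2-/- mice. On the log2 scale it differed by 0.03 ± 0.11 (SE), with a 95% interval of -0.22 to 0.28, and a second probe set gave -0.08. Itga2, the other collagen and laminin receptor chain of epithelium and platelets, read 98.2, 71.8 and 97.0 in WT mice and 118, 101 and 95.9 in Pxmp2-/- mice, a difference of 0.21 ± 0.13 (SE). Itga10, best known from cartilage, differed by 0.04 ± 0.16 (SE). In all 3 genes the genotypes overlapped.

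The laminin-binding alpha chains gave 3 different pictures. Itga6 encodes the laminin receptor chain of basal epithelium, where it pairs with the Itgb4 product, and of endothelium. Its representative probe set read 3737, 3954 and 4207 in WT mice and 4003, 3391 and 3610 in Pxmp2-/- mice, a log2 difference of -0.11 ± 0.10 (SE). The second one read 2196, 2762 and 2834 in WT mice and 2554, 2017 and 1880 in Pxmp2-/- mice, a difference of -0.27 ± 0.15 (SE). In both the lowest 2 values belonged to Pxmp2-/- 2 and 3 while Pxmp2-/- 1 lay among the WT mice, so the genotypes overlapped.

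Itga7, the laminin receptor chain of muscle that is also present in fat, was lower in every Pxmp2-/- mouse. It read 1451, 1712 and 1811 in WT mice and 1203, 1409 and 1381 in Pxmp2-/- mice, with means of 1658 ± 186 for WT and 1331 ± 112 for Pxmp2-/- (SD over 3 mice per group). The difference was -0.31 ± 0.11 (SE) on the log2 scale (unadjusted p = 0.0275, limma adjusted p = 0.257), and it did not pass. The gap between the genotypes was narrow, from 1451 in WT 1 to 1409 in Pxmp2-/- 2. Of 9 skeletal muscle markers only Ckm and Mylpf were above the filter. The summed levels over all 9 overlapped (776 to 968 in WT, 860 to 1238 in Pxmp2-/- mice). Most of that sum was the brightest Ckm probe set, at 536 to 692 in WT and 484 to 587 in Pxmp2-/- mice. Mylpf gave 0.54 ± 0.19 (SE) with overlap (unadjusted p = 0.0234, limma adjusted p = 0.249). A dimmer Ckm probe set was higher without overlap, at 45.72 to 54.64 in WT and 73.94 to 150.74 in Pxmp2-/- mice. The summed adipocyte markers (7 of 9 on the array) overlapped too, at 87600 to 92991 and 86555 to 90843. The part of either list in the Itga7 value was not tested.

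Itga3, an epithelial laminin receptor chain, was higher in every Pxmp2-/- mouse in the dimmer of its tested probe sets. That probe set read 81.3, 74.3 and 71.0 in WT mice and 101, 107 and 89.3 in Pxmp2-/- mice, a log2 difference of 0.33 ± 0.10 (SE) (unadjusted p = 0.00973, limma adjusted p = 0.213). The representative probe set overlapped, at 221, 201 and 220.1 in WT mice and 242, 215 and 247 in Pxmp2-/- mice, a difference of 0.12 ± 0.09 (SE). A further one below the filter read 32.9, 46.0 and 50.6 in WT mice and 70.5, 56.8 and 56.7 in Pxmp2-/- mice, again without overlap. All 3 thus pointed the same way, by small amounts and at low signal.

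The receptor chains for fibronectin and related ligands had overlapping genotypes in every tested probe set. Itgav, which joins several beta chains to bind vitronectin and latent TGF-beta, read 2322, 1953 and 2166 in WT mice and 2369, 1964 and 2107 in Pxmp2-/- mice. Its difference was -0.00087 ± 0.11 (SE), with an interval of -0.25 to 0.25. Itga5, the fibronectin receptor chain, was dim, and its 3 tested probe sets gave -0.14, 0.08 and 0.47, the last of which passed the filter only through its Pxmp2-/- level. Itga8, a receptor chain for nephronectin found on mesenchyme and smooth muscle, gave -0.11. Itga4, the leukocyte chain that binds Vcam1 and fibronectin, read 299, 232 and 238 in WT mice and 305, 343 and 235 in Pxmp2-/- mice, a difference of 0.18 ± 0.16 (SE). Another Itga4 probe set, below the filter, was higher without overlap, at 27.2, 23.6 and 22.1 in WT mice and 36.4, 49.1 and 39.0 in Pxmp2-/- mice. The other Itga4 probe sets below the filter had overlapping genotypes and differences of both signs, 0.43, -0.24 and 0.11. Of 9 lymphocyte markers, 8 were on the array and 5 tested, all 5 with positive differences (median 0.47). Over all named genes tested, 58.3% of differences were negative. Of the 5, 1 (20%), the pan-leukocyte gene Ptprc, was higher at an unadjusted p under 0.05, against 5.54% of named genes. None passed the adjusted threshold. Ptprc read 946, 725 and 939 in WT mice and 1428, 1786 and 955 in Pxmp2-/- mice, highest in Pxmp2-/- 2 and lowest of its genotype in Pxmp2-/- 3, as for the tested Itga4 probe set. The summed lymphocyte markers were 1086 to 1325 in WT and 1273 to 2591 in Pxmp2-/- mice, with overlap, and their part in the Itga4 values was not tested.

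Itgb1 encodes the beta chain shared by most of the alpha chains above, and all 3 of its tested probe sets leaned upward in Pxmp2-/- mice with overlapping genotypes. The representative one read 1423, 1920 and 1481 in WT mice and 1642, 2066 and 2153 in Pxmp2-/- mice, a log2 difference of 0.28 ± 0.15 (SE). The second gave 1310, 1494 and 1426 in WT mice and 1417, 1705 and 1823 in Pxmp2-/- mice, a difference of 0.22 ± 0.12 (SE). The third, 1427771_x_at, read 729, 874 and 737 in WT mice and 826, 1084 and 1077 in Pxmp2-/- mice, a difference of 0.34 ± 0.13 (SE) (unadjusted p = 0.0355, limma adjusted p = 0.272). Within the genotypes the same mice stood out in all 3 probe sets: Pxmp2-/- 2 and 3 and WT 2 were high, and Pxmp2-/- 1 lay near the WT level. The suffix _x_at marks probes that may also bind other transcripts, and 3 further Itgb1 probe sets were below the filter.

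Itgb8, whose product pairs with that of Itgav and activates latent TGF-beta, had the largest difference of any member. It lies on chromosome 12 and has 1 probe set, which read 188, 52.5 and 79.6 in WT mice and 239.6, 156 and 385 in Pxmp2-/- mice. WT 1 lay above Pxmp2-/- 2, so the genotypes overlapped, and the SD was large against the mean, at 107 ± 71.6 for WT and 260.0 ± 116 for Pxmp2-/- (SD over 3 mice per group). On the log2 scale it differed by 1.24 ± 0.43 (SE), with an interval of 0.24 to 2.24 (unadjusted p = 0.0213, limma adjusted p = 0.243).

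Among the markers of other cell types, those of nerve sheath were set beside Itgb8. Of 8 Schwann cell markers, 5 were on the array and tested. Of these, 3 (60%) were higher at an unadjusted p under 0.05, against 5.54% of named genes, and none at the adjusted threshold. The summed Schwann cell markers were 11077 to 17078 in WT and 16672 to 20085 in Pxmp2-/- mice. Myelin basic protein (Mbp) read 6508, 2675 and 3812 in WT mice and 8501, 6032 and 7608 in Pxmp2-/- mice. As for Itgb8, it was low in WT 2 and WT 3, with WT 1 above Pxmp2-/- 2. Sox10 and Pmp22 were also lower in WT 2 and WT 3 than in WT 1, and lowest of the Pxmp2-/- mice in Pxmp2-/- 2. In both, WT 1 lay below every Pxmp2-/- mouse, so they were higher without overlap, with 0.41 and 0.32. Cdh19 read 465, 256 and 373 in WT mice and 443, 428 and 440 in Pxmp2-/- mice, a difference of 0.29 with overlap. It too was low in WT 2 and WT 3, with WT 1 above Pxmp2-/- 2. Gfra3 gave -0.03, with overlap. The 4 tested luminal markers did not move one way. Cdh1, the epithelial cadherin, read 117, 39.8 and 40.8 in WT mice and 199.5, 105 and 116 in Pxmp2-/- mice, a difference of 1.01, while the luminal keratin Krt19 read 88.1, 84.0 and 119 in WT mice and 83.8, 58.6 and 68.3 in Pxmp2-/- mice, without overlap and lower, with -0.39. Cldn4 gave 0.20 and Prom1 -0.03, both with overlap. The summed level of all 10 luminal markers was 541 to 571 in WT and 649 to 725 in Pxmp2-/- mice, so the sum did not share the direction of Krt19. Only 4 of the 10 were above the filter. Cdh1, with means of 65.9 in WT and 140 in Pxmp2-/- mice, is part of that sum, and was also low in WT 2 and WT 3. The part of either list in the Itgb8 value was not tested.

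Itgb5, the vitronectin receptor chain, had differences under 0.2 in size in all 4 probe sets. The representative one read 1124, 1262 and 1140 in WT mice and 1116, 1271 and 1173 in Pxmp2-/- mice, and the log2 differences of the 4 were 0.01, 0.0031, -0.07 and -0.16. Of the other beta chains, Itgb3, Itgb4 and Itgb6 were below the filter in every probe set. Itgb4, the hemidesmosome chain of basal epithelium, read 33.8, 42.4 and 41.0 in WT mice and 60.4, 46.3 and 71.0 in Pxmp2-/- mice, without overlap but too dim to be tested. Itgb6, an epithelial activator of TGF-beta, did not exceed 38.3 in any mouse.

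**Figure D3:**
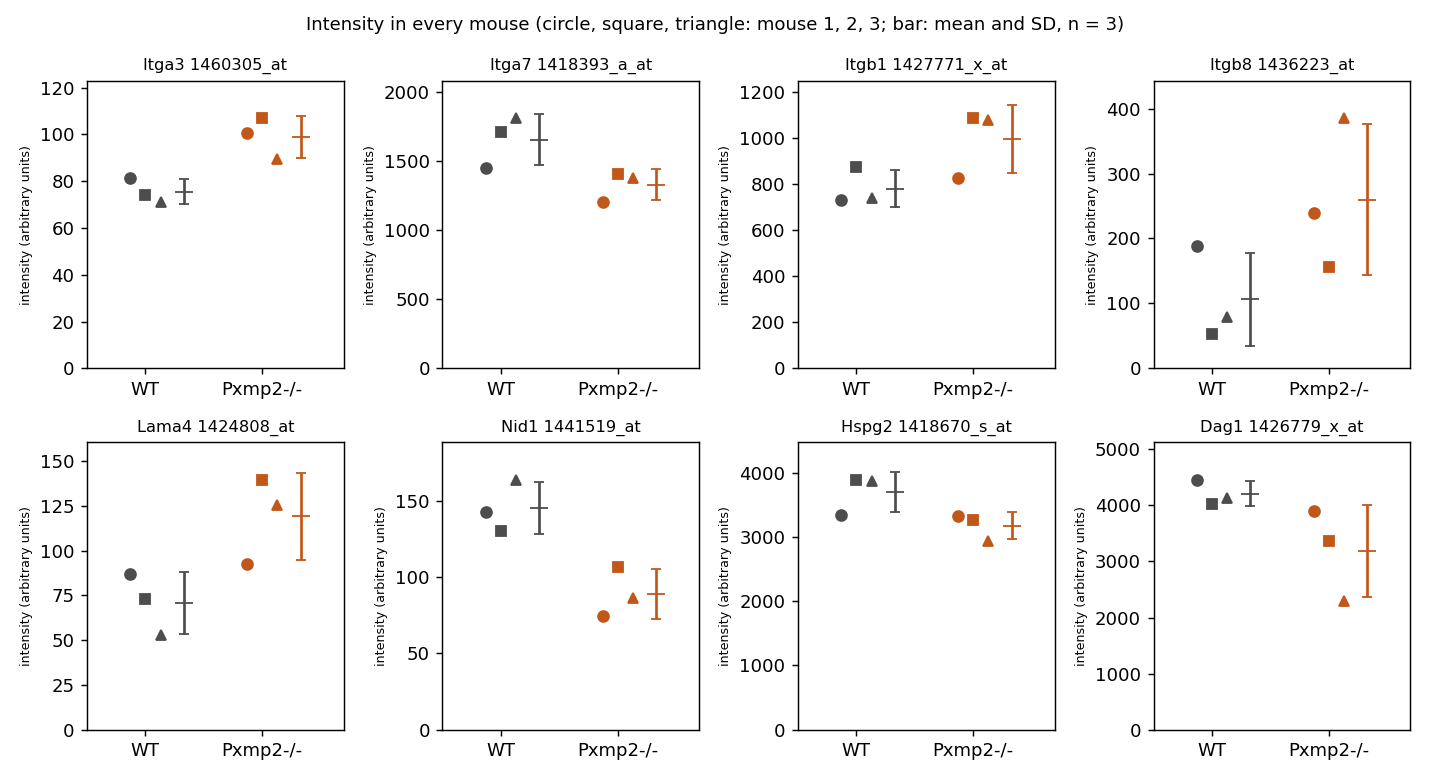
Intensity (arbitrary units, linear axis from 0) of 8 member probe sets in every mouse, WT in grey and Pxmp2-/- in orange, with the mean and SD of each group (n = 3) beside the points. Each gene is shown by its tested probe set of smallest unadjusted p, so the panels were selected by the difference between the genotypes. The genotypes lie apart for Itga3, Itga7, Lama4, Nid1, Hspg2 and Dag1 in the probe sets shown, by narrow gaps for Itga7 and Hspg2, and overlap for Itgb1 and Itgb8. These are the 6 of 45 member probe sets without overlap (13.3%, against 22.8% of all tested ones). In the representative probe sets of Itga3, Lama4, Nid1 and Dag1 the genotypes overlap.

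In their representative probe sets, the laminin chains measured at high signal did not differ beyond the spread between mice. Lamc1, the gamma chain of most laminins, read 2578, 2774 and 2582 in WT mice and 2471, 2401 and 2739 in Pxmp2-/- mice, a log2 difference of -0.06 ± 0.09 (SE) with an interval of -0.27 to 0.15. Lamb1, its usual beta chain partner, read 4404, 5251 and 5180 in WT mice and 5252, 4869 and 4423 in Pxmp2-/- mice, a difference of -0.03 ± 0.11 (SE). Lama4, the alpha chain of vessel and adipocyte basement membranes, read 2025, 2547 and 2220 in WT mice and 2207, 2697 and 1960 in Pxmp2-/- mice, a difference of 0.0091 ± 0.14 (SE). In these 3 probe sets the interval lay within 1.5-fold in either direction. It did not in a further, dimmer probe set each of Lama4 and Lamb1, described with the probe sets of a gene.

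The remaining laminin chains had overlapping genotypes as well. Lama2, the alpha chain of muscle and nerve, read 364, 489 and 473 in WT mice and 431, 461 and 361 in Pxmp2-/- mice, a difference of -0.07 ± 0.14 (SE). Lama5, the broadly expressed alpha chain, read 265, 259 and 264 in WT mice and 296, 272 and 247 in Pxmp2-/- mice, a difference of 0.04 ± 0.09 (SE). Lamb2, the beta chain of mature vessels and of synapses, read 351, 402 and 459 in WT mice and 358, 347 and 362 in Pxmp2-/- mice, with -0.17 ± 0.11 (SE), and WT 1 stood among the Pxmp2-/- mice. Lamc3, a rarer gamma chain, gave 0.19 ± 0.14 (SE). Over the 7 tested laminin genes the median difference was -0.028, 3 being above and 4 below 0, and none had an unadjusted p under 0.05 in its representative probe set.

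The chains of the epithelial adhesion laminin were too dim to be tested. Lama3 did not exceed 53.3 and Lamb3 72.9 in any mouse, and Lama1, an early embryonic chain, read 1 to 6. In all, 7 member genes (Itga9, Itgb3, Itgb4, Itgb6, Lama1, Lama3 and Lamb3) had no probe set above the filter and were not tested. Among the 31 member probe sets below the filter, 5 had genotypes that did not overlap, those of Itgb4, Itga3 and Itga4 given above and 1 each of Itga9 and Lamc1. The share without overlap among all probe sets below the filter was not determined, so this count has no background to be read against.

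Of the basement membrane partners, the nidogens were level in their representative probe sets. Nid1, which bridges laminin and collagen IV, read 8150, 8795 and 9111 in WT mice and 8524, 8203 and 8511 in Pxmp2-/- mice, a log2 difference of -0.04 ± 0.08 (SE) with an interval of -0.24 to 0.15. Nid2, its paralog, read 1393, 1910 and 1727 in WT mice and 1626, 1579 and 1945 in Pxmp2-/- mice, a difference of 0.04 ± 0.14 (SE). Agrin, which links laminin to dystroglycan, gave 1817, 2038 and 2321 in WT mice and 2408, 2284 and 2183 in Pxmp2-/- mice, a difference of 0.16 ± 0.11 (SE). All 3 had overlapping genotypes.

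Perlecan (Hspg2), the heparan sulfate proteoglycan of vessel and adipocyte basement membranes, was lower in every Pxmp2-/- mouse in its representative probe set, by a narrow margin between WT 1 and Pxmp2-/- 1. That probe set read 3338, 3889 and 3870 in WT mice and 3324, 3270 and 2939 in Pxmp2-/- mice, a difference of -0.22 ± 0.10 (SE) (unadjusted p = 0.0644, limma adjusted p = 0.322). The other one overlapped, at 643, 652 and 743 in WT mice and 691, 707 and 688 in Pxmp2-/- mice, a difference of 0.04 ± 0.09 (SE). The summed endothelial markers had genotypes apart in the same direction, at 29850 to 31910 in WT and 24870 to 27574 in Pxmp2-/- mice. Of 14 tested, 12 (85.7%) had negative differences, against 58.3% of named genes. At an unadjusted p under 0.05, 8 (57.1%) were lower, against 8.62% of named genes. None of the 14 passed the adjusted threshold, and their part in the Hspg2 value was not tested.

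Dystroglycan (Dag1), cut after synthesis into a laminin-binding and a membrane-spanning subunit, was bright and level in its representative probe set, at 6744, 6980 and 6358 in WT mice and 6552, 6565 and 6707 in Pxmp2-/- mice. The difference there was -0.02 ± 0.08 (SE), with an interval of -0.21 to 0.17. The probe set 1426779_x_at read 4456, 4029 and 4140 in WT mice and 3898, 3374 and 2298 in Pxmp2-/- mice, without overlap, a difference of -0.43 ± 0.18 (SE) (unadjusted p = 0.0479, limma adjusted p = 0.296). A further _x_at probe set read 3465, 3288 and 3245 in WT mice and 3260, 2828 and 1873 in Pxmp2-/- mice, a difference of -0.36 ± 0.19 (SE). In both, Pxmp2-/- 3 was far below the other mice, and without that mouse the differences were -0.21 and -0.13. The fourth gave -0.16 ± 0.12 (SE), with its lowest value, 1261, also in Pxmp2-/- 3.

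Probe sets of the same gene disagreed in several members, and the 3 largest differences after that of Itgb8 came from probe sets other than the representative one. Of 12 member genes with several tested probe sets, 7 had differences of both signs, and in 4 (Itga5, Lama4, Lamb1 and Nid1) the highest and lowest differed by over 0.5. The spread of Itga5 rested on 1457561_at, whose mean log2 level was 6.09 in WT and 6.56 in Pxmp2-/- mice around the filter level of 6.23. It was the 1 tested member probe set above that level in one genotype only, so its difference is no support for a change. The exons or transcript ends that each probe set covers were not given in the sources used here.

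Nid1 had the widest spread, with 1 probe set lower, 1 higher and 1 level. The dimmest, 1441519_at, was lower in every Pxmp2-/- mouse, at 143, 130.4 and 164 in WT mice and 74.3, 107 and 86.6 in Pxmp2-/- mice, a log2 difference of -0.63 ± 0.14 (SE) (unadjusted p = 0.00194, limma adjusted p = 0.162). Another was higher on average, at 545, 697 and 620.5 in WT mice and 582, 928 and 841 in Pxmp2-/- mice, a difference of 0.31 ± 0.18 (SE), with overlap. The representative one, given above, was level, and shares its source sequence in the platform annotation with the second.

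Lama4 and Lamb1 each had a dim probe set that was higher in Pxmp2-/- mice beside a bright one that was level. The dim Lama4 probe set, 1424808_at, read 87.0, 72.9 and 52.8 in WT mice and 92.4, 139.6 and 125 in Pxmp2-/- mice, without overlap, a difference of 0.64 ± 0.18 (SE) (unadjusted p = 0.00882, limma adjusted p = 0.212). The dimmest tested one of Lamb1 read 251, 380.1 and 342 in WT mice and 328, 529.5 and 526 in Pxmp2-/- mice, a difference of 0.48 ± 0.22 (SE) (unadjusted p = 0.0595, limma adjusted p = 0.315), where its middle one gave 0.08. All 3 tested Lamb1 probe sets carry the same source sequence. In the upward probe sets of Lama4, Lamb1 and Nid1 alike, Pxmp2-/- 2 and 3 held the 2 highest values and Pxmp2-/- 1 lay close to or among the WT mice.

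**Figure D4:**
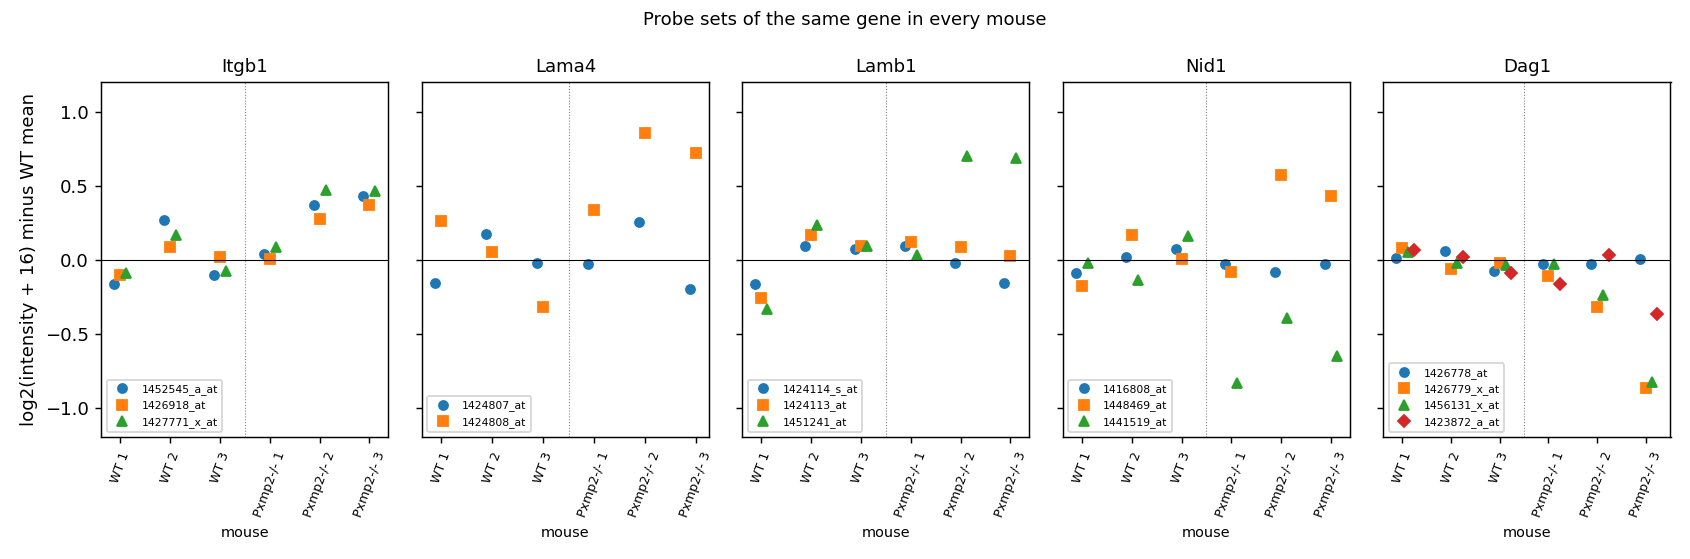
Log2(intensity + 16) minus the mean of the 3 WT mice (y axis) in every mouse (x axis) for all tested probe sets of Itgb1, Lama4, Lamb1, Nid1 and Dag1; each symbol is a probe set. The Itgb1 probe sets move together from mouse to mouse, while those of Lama4, Lamb1, Nid1 and Dag1 separate in Pxmp2-/- mice, most of all in mice 2 and 3.

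The wider adhesion machinery around these receptors was described by 5 lists of other genes. None of their tested genes passed the adjusted threshold. Over all named genes tested, an unadjusted p under 0.05 was reached by 14.2% (5.54% higher and 8.62% lower), 58.3% of differences were negative and the genotypes did not overlap in 22.6%. Of 27 tested genes that anchor integrins to actin or signal from them, 1 was higher and 2 were lower at an unadjusted p under 0.05 (11.1% in all), with a median log2 difference of 0.013. They were Zyx, a focal adhesion protein, with 0.20 ± 0.09 (SE), the endocytic adaptor Dab2 with -0.26 ± 0.10 (SE) and the integrin inactivator Sharpin with -0.23 ± 0.10 (SE). Next in order came Tln2, a talin that opens integrins, with -0.18. The core adaptors Tln1, Ilk and Fermt2 gave 0.05, 0.12 and 0.01, genes picked here for their known role.

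The integrin chains outside the set are mainly those of leukocytes and platelets, and 7 of the 9 listed chains were tested. Itgb2, the common beta chain of leukocytes, read 232, 246 and 252 in WT mice and 362, 332 and 279.8 in Pxmp2-/- mice, without overlap, a difference of 0.39 ± 0.11 (SE) (limma adjusted p = 0.209). Itgax, a chain of dendritic cells and macrophages, was also separate, with 0.44 ± 0.14 (SE). Itga2b, the platelet chain, was lower in every Pxmp2-/- mouse, with -0.22 ± 0.09 (SE), and Itgb7 gave 0.15. Over the 7, the median was 0.15, and 3 (42.9%) had an unadjusted p under 0.05. Of 9 macrophage markers, all tested, 5 (55.6%) were higher at an unadjusted p under 0.05, against 5.54% of named genes. None passed the adjusted threshold (lowest limma adjusted p = 0.0589), and Mrc1 and Cd163 gave -0.19 and -0.02. Their summed levels were 7653 to 8314 in WT and 9290 to 11879 in Pxmp2-/- mice. Itgam is in this list and also among the 7 chains. The part of the macrophage markers in the Itgb2 and Itgax values, and that of the lymphocyte markers given above, was not tested.

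Ligands other than laminin included 3 with higher and 1 with lower levels at an unadjusted p under 0.05, among 12 tested (33.3% in all), with a median of 0.046. Nephronectin (Npnt), the ligand of the Itga8 receptor, read 181, 203 and 226 in WT mice and 243, 307 and 278 in Pxmp2-/- mice, without overlap, a difference of 0.41 ± 0.12 (SE). Fibronectin (Fn1) read 437, 613 and 523 in WT mice and 820.4, 609.5 and 956 in Pxmp2-/- mice, a difference of 0.58 ± 0.18 (SE), with WT 2 just above Pxmp2-/- 2. Vitronectin (Vtn) gave -0.29 ± 0.12 (SE) and the integrin ligand Edil3 0.41 ± 0.17 (SE). The limma adjusted p of these 4 lay between 0.212 and 0.294.

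Among 13 tested genes of other laminin receptors and basement membrane components, 10 (76.9%) had negative differences and 2 were lower at an unadjusted p under 0.05 (15.4%, near the share of all named genes), with a median of -0.079. Fibulin 2 (Fbln2), which binds laminin and nidogen, read 470.0, 541 and 544 in WT mice and 368, 405 and 311 in Pxmp2-/- mice, without overlap, a difference of -0.51 ± 0.12 (SE) (limma adjusted p = 0.173). Col15a1, a collagen of the outer face of vessel and fat cell basement membranes, read 2743, 3653 and 3684 in WT mice and 2661, 2419 and 2392 in Pxmp2-/- mice, a difference of -0.42 ± 0.13 (SE). Rpsa, a ribosomal protein also described as a laminin receptor, gave -0.18, and Fbln1 gave 0.26. Of 10 fibroblast markers, all tested, 2 were higher and 3 lower at an unadjusted p under 0.05, none passed the adjusted threshold, and their summed level was 52747 to 62282 in WT and 44815 to 53220 in Pxmp2-/- mice. The part of these markers, and of the endothelial ones given above, in the values of this list was not tested.

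The complex around dystroglycan had 14 tested genes, 2 of them higher and 1 lower at an unadjusted p under 0.05 (21.4% in all), with a median of 0.019. Pomt2, which starts the sugar chain through which dystroglycan binds laminin, read 317, 289 and 288 in WT mice and 399.8, 356 and 364 in Pxmp2-/- mice, without overlap, a difference of 0.31 ± 0.09 (SE) (limma adjusted p = 0.212). The syntrophin Sntb2 was lower, with -0.47 ± 0.16 (SE), and the dystrobrevin Dtnb higher, with 0.27 ± 0.11 (SE). B3galnt2, which extends that sugar chain, gave -0.25. Utrophin (Utrn), the cytoplasmic partner of dystroglycan outside muscle, gave -0.13 in its brightest probe set, and was chosen for its known role. A dimmer Utrn probe set went the other way without overlap, at 150, 155 and 136 in WT mice and 169, 314 and 302 in Pxmp2-/- mice.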

How the data were processed

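Per the labels' protocols, RNA of the fat pads of 6 mice was purified with a lipid tissue kit, given a biotin label and run on Affymetrix arrays. The deposited table holds intensity values on a linear scale for 45037 probe sets; the summary of probes and the scaling were not given in the sources used here. There were 0 columns unmatched to a sample. Intensities were used as log2(intensity + 16), and probe sets with a mean above the 40th percentile were tested with limma 3.58.1 (R 4.3.3; lmFit, eBayes, two-sided, Benjamini-Hochberg over 27022 probe sets, threshold 0.05). Standard errors and 95% intervals are limma's. Gene symbols came from the platform annotation, and the RefSeq table of GRCm38.p6, reached by Entrez number, gave the same symbol for 32 members. No coordinates are given. Values in every mouse were given for members with an unadjusted p under 0.05 or separate genotypes in a tested probe set and for Itgb1, Itga6, Lamc1, Lamb1 and Nid1, plus others to show their spread; up to 4 genes of smallest p were named per list. The members and lists were chosen with earlier results of these data known. The procedure was tested on simulated data. Same-numbered mice of the genotypes did not deviate together (correlations of 0.022, 0.044 and -0.12), so numbers were not taken to pair mice. Alternatives were another scaling (quantile normalization or median centring), pseudocount, level filter or variance model, array weights, a replicate block and leaving out each array. The 3 arrays per genotype limit the precision. Plots were drawn with matplotlib 3.10.9.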

Additional observations from a re-analysis of the deposited data

How the results depend on the processing

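No member probe set passed the adjusted threshold under any of the 15 other settings, where the lowest adjusted p was 0.107, or when probe sets ending in _x_at or _s_at were left out, an alternative chosen after seeing the data. None of the adhesion machinery list passed under these 15 either. The calls over the whole table, 17 as reported, were 1 with no level filter, 26 with array weights, 34 with an intensity trend and 1 to 33 without single mice. Of member probe sets at an unadjusted p under 0.05, the 4 higher became 1 with the 60th percentile filter, 8 with array weights, 7 with no level filter and 2 to 7 without single mice. The 3 lower became 1 after quantile normalization and 1 to 6 without single mice. With the replicate number as a block the table had 1 call, and 6 member probe sets were higher and 3 lower at an unadjusted p under 0.05. Mice with the same number did not deviate together, so the block has no basis in the design. Why these counts moved was not tested, beyond fewer or more probe sets or mice entering a fit.

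The median difference over member genes, 0.0091, ranged from -0.039 to 0.021 without single mice. It was 0.041 after quantile normalization and -5.7e-05 after median centring. All 16 member probe sets with a difference above 0.2 in size kept their direction in those of the 15 settings that tested them. In all 28 of 45 did, and those that turned were at most 0.14 in size as reported. Quantile normalization turned Itgav to 0.041 and Itgb5 1456133_x_at to 0.0012. Median centring turned Itgb5 1417534_at to -0.0060 and Lama4 1424807_at to -5.7e-05.

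Without single mice, these ranged across 0: Itgb5 1417533_a_at from -0.037 to 0.065 and 1417534_at from -0.088 to 0.053, Hspg2 1418669_at from -0.00096 to 0.10, and Itga5 1423267_s_at from -0.27 to 0.074 and 1423268_at from -0.082 to 0.29. Nid2 ran from -0.087 to 0.14, Lamb1 1424113_at from -0.051 to 0.16 and 1424114_s_at from -0.11 to 0.037. Lama4 1424807_at ran from -0.12 to 0.11, Lama2 from -0.20 to 0.023, Dag1 1426778_at from -0.054 to 0.013 and Lama5 1427009_at from -0.017 to 0.11. Itga1 1439713_at ran from -0.19 to 0.016 and 1455251_at from -0.039 to 0.10, Itga10 from -0.12 to 0.15 and Itgav from -0.074 to 0.061. Signal over background limits the dim members, Itgb8 among them, more than the bright ones.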
